A study of Rattus norvegicus with 108 samples.

Results

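Rgs5, Pdgfrb, Vtn and Acta2 are genes by which the mural cells of blood vessels are commonly recognised. They were looked up by symbol in droplet-based RNA profiles of the rat dentate gyrus, and 3 of the 4 were measured among 19127 genes. Acta2, the actin of vascular smooth muscle, was not analysed here. The tissue came from dorsal (dorDG) and ventral (venDG) dentate gyrus of male rats, 2 months of age (from Charles River per the labels, Long-Evans per the study's methods), that received fluoxetine (FT), a serotonin reuptake inhibitor, at 18 mg/kg for 6 weeks, or water in its place (Sham). dorDG had 4 FT and 5 Sham replicates, and venDG had 5 of each. A replicate is a pool of 3 animals per the study's methods, and tests compared replicates, never cells. The deposited annotation divides dorDG cells into 12 types, none of them mural, so the first question was which cells carried these genes.

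Mural cells wrap the endothelial tube of a vessel. Pericytes sit on capillaries inside the basement membrane, and smooth muscle cells ring arterioles and venules. Endothelial cells recruit them with platelet-derived growth factor B, whose receptor is encoded by Pdgfrb. Rgs5 encodes a protein that shortens G protein signalling, and Vtn encodes vitronectin, a secreted matrix protein that binds integrins. In the brain, pericytes help to maintain the blood-brain barrier.

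The 3347 cells used (1289 dorDG and 2058 venDG) gave 220162 to 1523537 unique molecular identifiers (UMIs) per replicate, each UMI standing for 1 captured RNA molecule. Levels below are UMIs of a gene per 10000 UMIs of the same cells. Replicates also differed in the share of cells with under 2% of their UMIs from ribosomal protein genes, called low-ribosomal cells, which was 16 to 45.2% in dorDG FT, 35.6 to 73.0% in dorDG Sham, 19.2 to 52.6% in venDG FT and 20.4 to 61.9% in venDG Sham. Replicates 1 and 2 had 2 reactions each, and the share of low-ribosomal cells was 5.1 to 18.8% in first and 78.3 to 97.5% in second reactions. The labels speak of nuclei alone, while the study's methods describe suspensions of both cells and nuclei. Intervals of shares cover counting error only.

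The promoters of Rgs5 and Vtn, the pair of members that shared cells most often (Jaccard index 0.394, below), are shown to let a reader compare them. Both are from RefSeq on GRCr8, forward strand, from 250 bases before to 50 after the annotated start of transcription, with capitals at matches to the letters TGGGAA (bound by RBPJ, the Notch effector) or GGAATG (bound by TEAD factors) on either strand. The table held 2 of the 3 members, Pdgfrb being the third.
Rgs5, chr13:84380827-84381126: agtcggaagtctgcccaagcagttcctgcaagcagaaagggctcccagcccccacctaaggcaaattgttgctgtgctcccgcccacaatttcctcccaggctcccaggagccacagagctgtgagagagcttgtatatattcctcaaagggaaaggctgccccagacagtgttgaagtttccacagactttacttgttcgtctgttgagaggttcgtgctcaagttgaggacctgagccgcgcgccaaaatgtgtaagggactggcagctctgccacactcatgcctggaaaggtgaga
Vtn, chr10:63892532-63892831: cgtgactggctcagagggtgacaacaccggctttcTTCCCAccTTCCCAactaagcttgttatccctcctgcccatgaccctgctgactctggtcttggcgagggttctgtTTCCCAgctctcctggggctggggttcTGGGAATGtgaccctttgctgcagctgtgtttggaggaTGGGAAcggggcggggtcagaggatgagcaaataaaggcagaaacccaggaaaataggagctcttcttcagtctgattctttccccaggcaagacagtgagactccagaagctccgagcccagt
The Vtn window held 5 matches to TGGGAA, present in 25.7% of 33469 promoters of this length, and 1 to GGAATG, present in 14.2%, where the 2 motifs overlap. The Rgs5 window held 0 of either. The CArG box bound by SRF, present in 1.64% of promoters, was in neither window. A match describes letters and is not a measured binding site.

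In dorDG, the 3 genes were concentrated in the 72 cells that the authors named Mossy, after the mossy cells of the dentate hilus, which are excitatory neurons. Rgs5 was detected in 53 of these 72 cells (73.6%, exact 95% interval 61.9 to 83.3%), Pdgfrb in 53 and Vtn in 52 (72.2%, 60.4 to 82.1%). The 72 cells are 5.59% of dorDG cells and held 71.6% of its Rgs5 UMIs (209 of 292), 54.5% of its Pdgfrb UMIs (152 of 279) and 82.3% of its Vtn UMIs (372 of 452). Their level was 4.43 per 10000 for Rgs5, 3.23 for Pdgfrb and 7.89 for Vtn. In the 180 cells named Endothelial the levels were 0.693, 0.487 and 0.62, and the genes were detected in 15.6%, 10.6% and 8.89% of cells. In the other 10 types together (1037 cells) the levels were 0.0722, 0.189 and 0.0763. Thus the order for each member was Mossy, then Endothelial, then the other types pooled.

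**Figure D1:**
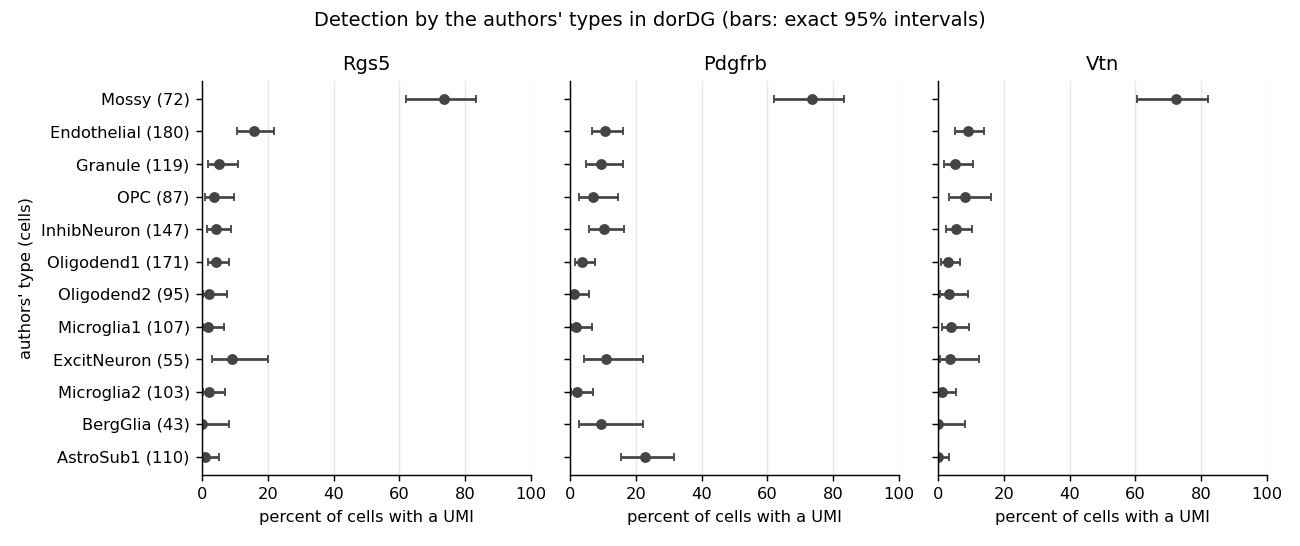
The percent of dorDG cells with at least 1 UMI of Rgs5, Pdgfrb or Vtn in each of the authors' 12 types, with exact 95% intervals for counting error and the number of cells in parentheses. Mossy cells stand at 72.2 to 73.6% for every member, and Pdgfrb alone reaches 22.7% in AstroSub1.

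Within replicates, the 7 with at least 5 Mossy cells had more Rgs5 and Vtn in Mossy than in Endothelial cells, while Pdgfrb was lower in Mossy cells in Sham replicate 2 (0.759 against 0.858 per 10000). Among these 7 replicates, Rgs5 ran from 2.66 to 8.9 per 10000 (median 3.92), Pdgfrb from 0.759 to 5.44 (median 3.2) and Vtn from 1.33 to 16.1 (median 8.25). Among the 9 replicates with at least 5 Endothelial cells, Rgs5 ran from 0.219 to 1.45 (median 0.43), Pdgfrb from 0.112 to 1.05 (median 0.286) and Vtn from 0 to 2.37 (median 0.286). The ranges did not overlap for Rgs5 and overlapped for Pdgfrb and Vtn. The order was the same with each cell thinned to 1000 UMIs, where Rgs5 was detected in 36.8%, Pdgfrb in 35.3% and Vtn in 48.5% of Mossy cells, against 7.69%, 3.55% and 2.37% of Endothelial cells. Thinning left out 4 Mossy and 11 Endothelial cells. The authors' names may rest on these genes, so the differences between types are described and not tested.

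The name Mossy was checked against marker genes. Of the mural list without the members (11 measured genes), Mossy cells had a mean of 3.83 genes detected, and their summed level was 25.6 per 10000 against 1.8 in Endothelial cells. Higd1b was detected in 75.0% of them, Atp13a5 in 72.2%, Kcnj8, the pore subunit of the ATP-sensitive potassium channel of vessels, in 54.2% and Abcc9, its regulatory partner, in 48.6%. A set of 3 genes of hilar mossy cells and glutamatergic neurons was chosen after the values were seen. Of these, Slc17a7, a vesicular glutamate transporter, was at 0.212 per 10000, against 5.2 in ExcitNeuron cells. Calb2 and Drd2 had 0 UMIs in the 72 cells. They were also rare in ExcitNeuron cells (5 and 1 of 55 cells), so their absence says little. The excitatory list summed to 1.61 per 10000 in Mossy cells, 1.87 in Endothelial cells and 12.6 in ExcitNeuron cells. The endothelial list summed to 51.0 in Mossy and 83.5 in Endothelial cells. The mural list, Slc17a7 and the excitatory list go against the name. The cells are called here Mossy-named cells, with no other type name in its place.

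The Mossy-named cells were not uniform. Of the 72, 54 had at least 2 members detected. Tagln, which encodes transgelin, was at 2.91 per 10000 in these 54 cells and at 18.1 in the other 18, where 6 cells held it. Myh11, the myosin heavy chain of smooth muscle, was at 1.08 and 7.37. When the cells were clustered on genes without the members, 36 Mossy-named cells formed a cluster with 9 mural and 10 endothelial markers, which was left unnamed, and 16 formed a mural-like cluster. A further 19 lay in endothelial-like clusters. The mural-like cluster had Rgs5 at 20.9, Pdgfrb at 14.1 and Vtn at 41.5 per 10000, and the unnamed cluster had 3.39, 2.34 and 5.7. Of the contractile genes, Tagln (0.543 in the mural-like and 9.95 in the unnamed cluster) and Myh11 (0.271 and 3.96) went the other way. Des, the muscle intermediate filament desmin, was at 2.44 and 1.9, and Myl9, a myosin light chain, at 7.87 and 5.99.

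In the other 10 types, cells with a member mostly held 1 UMI of it, with 36 Rgs5 UMIs in 34 cells, 94 Pdgfrb UMIs in 78 and 38 Vtn UMIs in 36. Over both regions, 55.4% of the cells with Rgs5, 58.2% of those with Pdgfrb and 42.3% of those with Vtn held only 1 UMI of it. In Microglia1 cells, which should lack all 3 genes and were deeper (median 6669 UMIs) than Mossy-named cells (median 4722.5), the shares were 1.87% for Rgs5, 1.87% for Pdgfrb and 3.74% for Vtn. Those shares give the background against which the other types are read. Among the other 9 of these types, the exact intervals overlapped those of Microglia1 for each member, except for Pdgfrb in AstroSub1. Overlap does not show that a share is background: in BergGlia, Pdgfrb was detected in 4 of 43 cells (9.3%, 2.59 to 22.1%) at 0.804 per 10000, while Rgs5 and Vtn were detected in 0, which allows up to 6.98%.

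Pdgfrb departed from Rgs5 and Vtn in AstroSub1, an astrocyte type by the authors' name. It was detected in 25 of 110 AstroSub1 cells (22.7%, exact 95% interval 15.3 to 31.7%) at 0.968 per 10000, whereas Rgs5 was detected in 1 of them (0.909%) and Vtn in 0, which allows up to 2.73%. In the 8 replicates with at least 5 such cells, Pdgfrb ran from 0.296 to 2.07 per 10000 (median 0.665). It was detected in 25.7% of the low-ribosomal AstroSub1 cells and in 16.7% of the others. In venDG the astrocyte-like clusters (239 cells) showed the same contrast, with Pdgfrb in 22.2% of cells (17.1 to 28.0%), Rgs5 in 1.26% and Vtn in 2.09%. After thinning to 1000 UMIs, Pdgfrb was detected in 8.16% of AstroSub1, 9.09% of the 22 BergGlia cells deep enough and 8.42% of venDG astrocyte-like cells, against 0% of Microglia1 cells and 0.545% of venDG microglia-like cells. Of the 78 cells with Pdgfrb in the other 10 dorDG types, 25 were AstroSub1 cells and 0 also had Rgs5. An unnamed dorDG cluster of 64 deep cells (median 8895.5 UMIs) also had Pdgfrb in 28.1% of cells (17.6 to 40.8%), with Rgs5 and Vtn in 9.38% each.

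In venDG, where no author's name was used, 81 cells formed mural-like clusters on genes without the members. Rgs5 was detected in 70.4% (9.2 per 10000), Pdgfrb in 80.2% (8.76) and Vtn in 80.2% (24.4) of them. The larger of these clusters had 69 cells from all 10 replicates, with Rgs5 at 12, Pdgfrb at 11.2 and Vtn at 35.0 per 10000. The smaller had 12 cells from 4 replicates, where Tagln stood at 72.7 and Myh11 at 23.6 per 10000 beside Rgs5 at 3.52, Pdgfrb at 3.81 and Vtn at 3.08. Endothelial-like clusters of venDG (256 cells) had Rgs5 at 0.925, Pdgfrb at 0.63 and Vtn at 1.34 per 10000, and an unnamed cluster of 27 cells (median 9663 UMIs) had Rgs5 in 100% of cells, Pdgfrb in 96.3% and Vtn in 100%.

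The members were found together. In dorDG, 72 cells had at least 2 members detected (27 with 2 and 45 with all 3), and 54 of them (75.0%) were Mossy-named, 12 Endothelial, 4 InhibNeuron, 1 Oligodend1 and 1 Granule. In venDG, 41 cells had 2 and 89 had all 3. Of the dorDG cells with Vtn, 53.8% also had Rgs5, against 4.98% of those without Vtn. In venDG the shares were 59.4% and 3.61%.

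By the Jaccard index, the cells shared by 2 genes as a part of the cells with either, members were among each other's nearest genes over all 3347 cells and 16044 genes. For Rgs5 the 5 highest were Vtn (0.394), Higd1b (0.389), Cox4i2 (0.361), Kcnj8 (0.298) and Pdgfrb (0.297). For Pdgfrb they were Vtn (0.334), Rgs5 (0.297), Cox4i2 (0.29), Higd1b (0.288) and Slc6a20 (0.273). For Vtn they were Higd1b (0.416), Rgs5 (0.394), Cox4i2 (0.391), Kcnj8 (0.339) and Slc6a20 (0.336). Pdgfrb was not among these 5 and had rank 6 for Vtn (0.334). Cox4i2 encodes an isoform of a cytochrome c oxidase subunit, and Slc6a20 an amino acid transporter. All pairs share libraries and depth, and the index of Pdgfrb with Rgs5 was lower in dorDG (0.238) than in venDG (0.34).

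Endothelial genes were detected beside the members in a part of these cells only. Flt1, a receptor for vascular endothelial growth factor, was detected in 65.2% of dorDG cells with Rgs5 and 35.9% of those without, and Pecam1, an endothelial adhesion molecule, in 44.3% and 24.4%. In venDG, Flt1 was in 61.0% and 27.4% and Pecam1 in 39.5% and 16.9%. Within the dorDG types the contrast was smaller or turned. With and without Rgs5, Flt1 was in 71.7% and 73.7% of Mossy-named cells and Pecam1 in 43.4% and 57.9%. In Endothelial cells the shares were 85.7% and 83.6% for Flt1 and 64.3% and 61.8% for Pecam1. In the other 10 types they were 38.2% and 27.9%, and 29.4% and 18.0%. The junction genes Cldn5 (3.33%) and Cdh5 (5.0%) were seldom detected even in Endothelial cells, and say little here. Cells with Rgs5 were also deeper (median 5177 against 3883 UMIs in dorDG, 4290.5 against 3306 in venDG). The parts of depth and of cell type in the shares over all cells were not tested.

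The number of endothelial genes detected, of 14, split the cells with at least 2 members in both regions. In dorDG, 31 of the 72 had 0 to 3, 10 had 4 to 6 and 31 had 7 or more. In venDG, 69 of 130 had 0 to 3, 15 had 4 to 6 and 46 had 7 or more. The cells with 7 or more were deeper, with a median of 11128 UMIs against 2577 in dorDG and 9169.5 against 1977 in venDG. Their member levels were lower: in dorDG, Rgs5 stood at 3.19 against 7.12 per 10000, Pdgfrb at 2.34 against 5.55 and Vtn at 4.48 against 15.2. In venDG the pairs were 3.14 and 8.85, 2.63 and 8.25, and 6.26 and 21. No doublet caller was run, and whether such cells are 2 cells in 1 droplet was not tested.

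**Figure D2:**
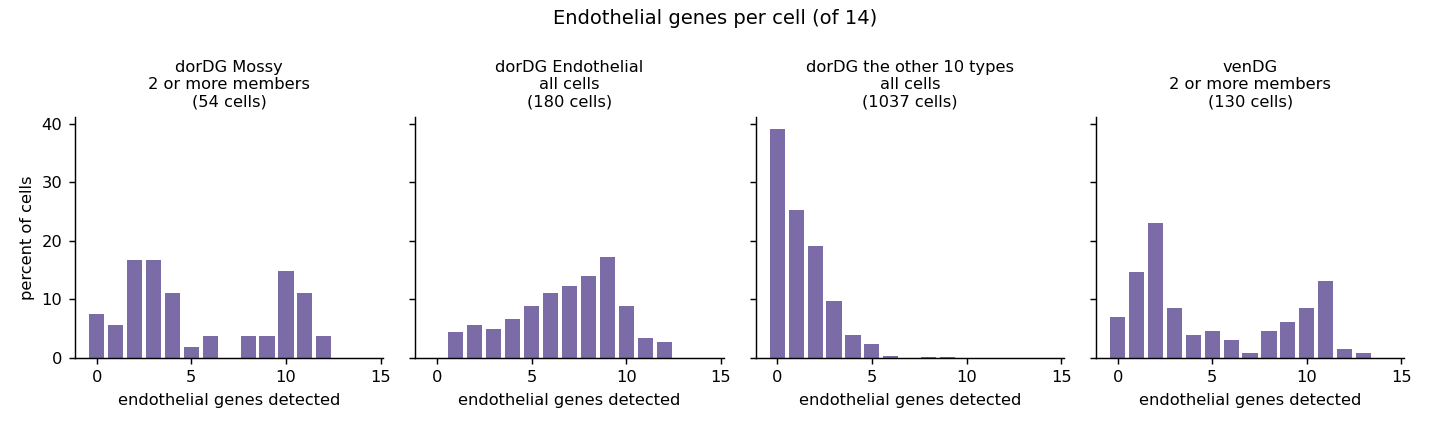
Histograms of how many of 14 endothelial genes had a UMI in each cell, as the percent of cells in each panel. Mossy-named cells with at least 2 members and venDG cells with at least 2 members each form a low and a high mode, with 25 of 54 and 69 of 130 cells at 0 to 3 genes, while the other 10 dorDG types lie mostly at 0 to 3 genes.

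The next question was whether FT changed the members. In dorDG over all cells, the Rgs5 level in FT was 0.685, 0.508, 0.622 and 0.548 per 10000 (replicates 1, 2, 4 and 5) and in Sham 0.226, 0.449, 0.0815, 0.838 and 0.389 (replicates 1 to 5). The lowest 4 Sham replicates lay below all FT replicates and 1 lay above them. The fitted difference was 0.71 ± 0.40 on the log2 scale (SE, edgeR quasi-likelihood test, p = 0.0891, adjusted p = 0.408). Pdgfrb stood at 0.309, 0.497, 0.672 and 0.6 in FT and at 0.38, 0.328, 0.143, 0.74 and 0.444 in Sham, with groups that overlap (log2 difference 0.47 ± 0.35, adjusted p = 0.532). Vtn stood at 0.873, 0.474, 1.76 and 1.23 in FT and at 0.47, 0.259, 0.0408, 1.28 and 0.389 in Sham. The Vtn groups overlapped through Sham replicate 4, and the log2 difference was 1.27 ± 0.50 (p = 0.0201, adjusted p = 0.314). Thus 0 of 3 members passed the test in edgeR, against 0.201% of 15937 genes called (0.0878% higher and 0.113% lower in FT), and 1 of the 3 had an unadjusted p under 0.05, as did 2304 of the 15937 genes. DESeq2 gave Vtn an adjusted p of 0.212 and gave none for Rgs5 and Pdgfrb. In sums over all cells, taken alone, fewer cells of a type and less RNA per cell cannot be told apart. Shares of named cells and levels within them follow below. With the study's filter on low levels, 1 member (Vtn) was tested and it was called, while calls over all genes rose from 32 to 1221. Leaving out Sham replicate 4 also gave 1 call, and calls over all genes ran from 0 to 1995 with 1 replicate left out. Whether Vtn stands out from all genes under these settings was not tested. Single replicates weighed on the members' differences. Leaving out Sham replicate 4 gave 1.16 for Rgs5, 0.78 for Pdgfrb and 1.95 for Vtn, and leaving out Sham replicate 3 gave 0.45 for Rgs5 and 0.25 for Pdgfrb. Pdgfrb was 0.31 when FT replicate 4 was dropped. In cells with at least 2% ribosomal UMIs the differences were 0.33 for Rgs5, 0.54 for Pdgfrb and 0.83 for Vtn.

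**Figure D3:**
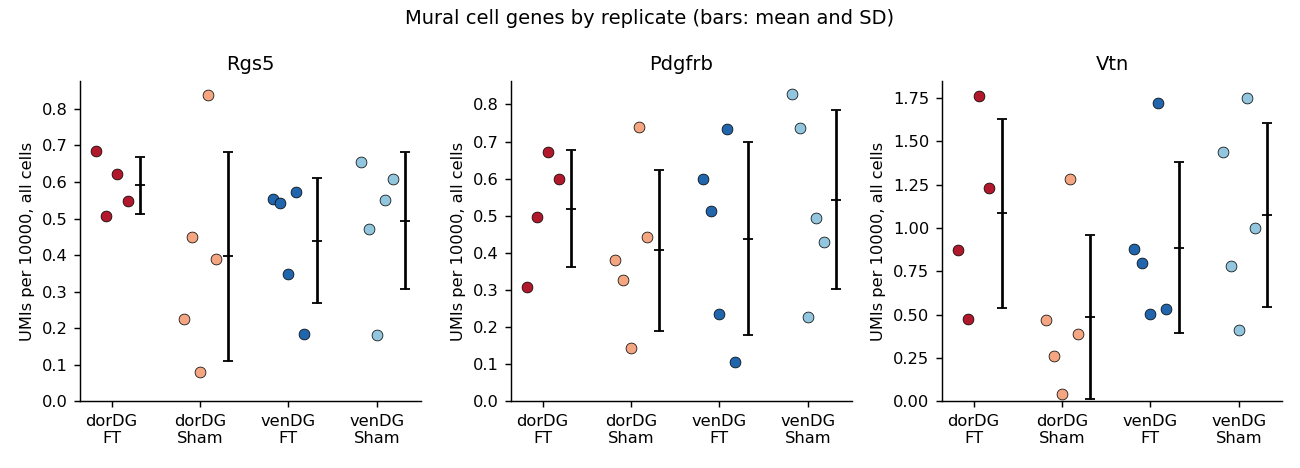
Rgs5, Pdgfrb and Vtn in UMIs per 10000 over all cells of each replicate (points) in the 4 groups, with mean and SD as bars beside them. In every panel the FT and Sham points of a region overlap, and dorDG Sham spans the widest range for Rgs5, from 0.0815 to 0.838.

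The number of Mossy-named cells was 11, 17, 12 and 9 in the dorDG FT replicates and 9, 5, 0, 8 and 1 in the Sham replicates. As shares of cells these were 7.69, 8.63, 9.16 and 9.09% in FT and 3.91, 3.62, 0, 5.93 and 0.862% in Sham. Whether these shares account for the levels of the members was not tested. Mossy-named cells held 80.6% of the Rgs5, 78.2% of the Pdgfrb and 91.5% of the Vtn UMIs in FT, and 59.8%, 29.9% and 66.7% in Sham. Leaving them out, a step chosen after the data were seen, takes away most of the members' UMIs in FT and a smaller part in Sham, and the authors' names may rest on these genes, so the values that remain describe where the UMIs lay and are no test of treatment. They gave log2 differences of -0.29 for Rgs5, -1.10 for Pdgfrb and -0.67 for Vtn. Pdgfrb without those cells stood at 0.134, 0.104, 0.114 and 0.156 per 10000 in FT and at 0.304, 0.285, 0.143, 0.405 and 0.353 in Sham, where 1 Sham replicate lay within the FT range. Sham replicate 3, with 0 Mossy-named cells and 73.0% low-ribosomal cells, was the lowest dorDG replicate for all 3 members, and its Vtn value of 0.0408 rests on 2 UMIs.

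Within Mossy-named cells no member differed between the treatments beyond the spread of the replicates. Over the 7 replicates with at least 5 such cells, Rgs5 was at 5.92, 2.66, 4.72 and 3.92 per 10000 in FT and at 3.27, 3.22 and 8.9 in Sham (replicates 1, 2 and 4), with a log2 difference of -0.13 ± 0.43. The difference was 0.51 ± 0.50 for Pdgfrb and 0.20 ± 0.49 for Vtn, with adjusted p = 0.992 for each. The estimates plus and minus 2 SE ran from -0.98 to 0.73 for Rgs5, from -0.49 to 1.51 for Pdgfrb and from -0.77 to 1.18 for Vtn. Changes inside those limits remain possible. This comparison was also chosen after the data were seen. Neither tool called any gene in it (0% of 7341), and edgeR gave 287 an unadjusted p below 0.05.

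Within Endothelial cells the 3 estimates were negative. Rgs5 stood at 0.412, 0.896, 0.252 and 0.43 per 10000 in FT and at 0.286, 0.686, 0.219, 1.24 and 1.45 in Sham (log2 difference -0.57 ± 0.54, adjusted p = 0.998). Pdgfrb gave -1.31 ± 0.65 (p = 0.0455) and Vtn -1.32 ± 0.64 (p = 0.0402), each with adjusted p = 0.906. They rest on 47, 33 and 42 UMIs of the 3 genes in 180 cells. Endothelial cells with at least 2 members numbered 3 in FT and 9 in Sham, and Mossy-named ones 39 and 15. The authors' names may rest on these genes, and the part of this split in the estimates was not tested. By the test, 0 of 3 members were called, in edgeR and in DESeq2, against 0.0563% of 8874 genes in edgeR (0.0225% higher and 0.0338% lower in FT).

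In venDG the members showed no difference beyond the spread of the replicates. Rgs5 stood at 0.553, 0.543, 0.348, 0.572 and 0.183 per 10000 in FT and at 0.654, 0.472, 0.182, 0.551 and 0.609 in Sham (log2 difference -0.11 ± 0.30, adjusted p = 0.978). Pdgfrb stood at 0.6, 0.514, 0.236, 0.735 and 0.107 in FT and at 0.827, 0.737, 0.227, 0.495 and 0.43 in Sham (-0.30 ± 0.36, adjusted p = 0.947). Vtn stood at 0.877, 0.797, 0.505, 1.72 and 0.533 in FT and at 1.44, 0.782, 0.409, 1.75 and 1.0 in Sham (-0.26 ± 0.33, adjusted p = 0.949). Each pair of groups overlapped widely. No member was called in edgeR or DESeq2 or had an unadjusted p under 0.05, and 0% of 16366 genes passed in edgeR, where 824 had an unadjusted p below 0.05, while DESeq2 called 2.

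The regions were compared with the treatment held fixed and their replicates taken as independent. Relative to venDG, the log2 level in dorDG was -0.04 ± 0.27 for Rgs5, -0.20 ± 0.28 for Pdgfrb and -0.51 ± 0.36 for Vtn (adjusted p = 0.993, 0.959 and 0.922). In this comparison 0 of 3 members were called, in edgeR and in DESeq2, against 0.266% of 17283 genes in edgeR (0.127% higher and 0.139% lower in dorDG). The treatment difference in dorDG minus that in venDG was 0.84 ± 0.53 for Rgs5, 0.78 ± 0.56 for Pdgfrb and 1.54 ± 0.66 for Vtn (p = 0.0269, adjusted p = 0.698). Again 0 of 3 members passed, although Vtn did with the replicate number as a block (1.49, adjusted p = 0.139, edgeR). Without the block 0% of 17283 genes passed in either tool, and edgeR gave 1141 genes an unadjusted p below 0.05, while 125 genes were called with it.

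**Figure D4:**
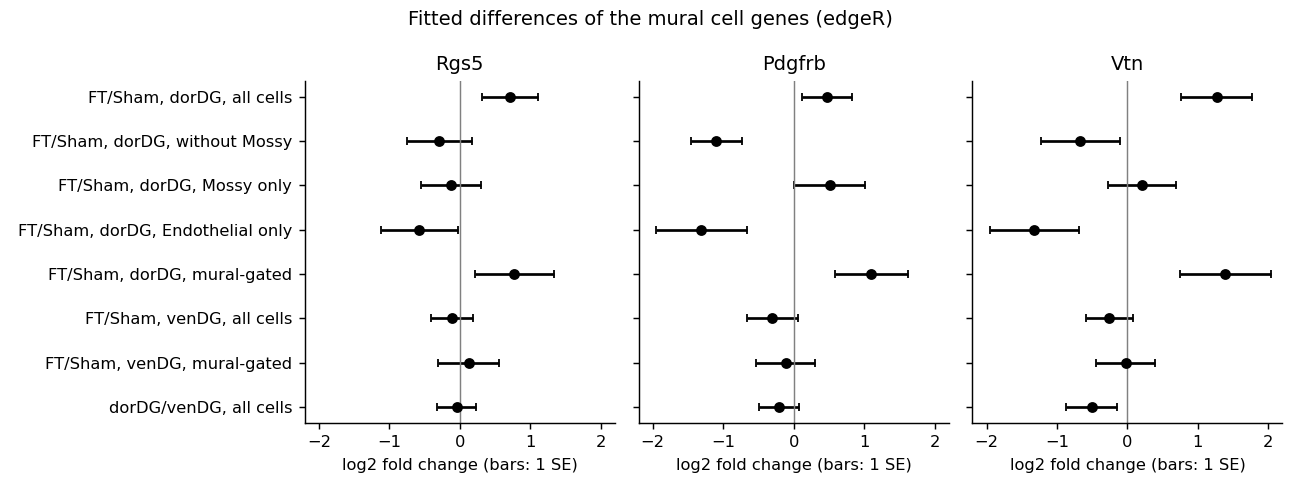
Fitted log2 fold changes of Rgs5, Pdgfrb and Vtn with 1 SE on each side in 8 fits, FT over Sham except in the lowest line, which is dorDG over venDG. In dorDG the estimates lie above 0 over all cells and below 0 once Mossy-named cells, which held 71.6% of the Rgs5, 54.5% of the Pdgfrb and 82.3% of the Vtn UMIs, are left out.

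To count mural cells without the members, cells were gated on at least 2 of the 11 other mural genes. The gate took 174 dorDG and 235 venDG cells. In dorDG it took 61 of the 72 Mossy-named cells (84.7%), but also 25 InhibNeuron, 23 OPC and 17 Endothelial cells, so it is wider than the mural cells. Gated cells made up 19.6, 14.7, 14.5 and 16.2% of the dorDG FT replicates and 12.6, 8.7, 8.0, 15.6 and 10.3% of the Sham replicates. The mean was 5.2 percentage points higher in FT, with 1 of 5 Sham replicates inside the FT range (two-sided exact permutation test, p = 0.0476, adjusted over both regions p = 0.0476, smallest possible p 0.0159). In venDG they made up 11.9, 8.59, 9.62, 10.8 and 10.9% in FT and 11.5, 14.2, 19, 15.4 and 13.6% in Sham. Here the mean was lower in FT, by -4.38 points, with overlap of 1 replicate in each group (exact permutation test, p = 0.0159, adjusted p = 0.0317).

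Both share calls changed with the cells counted. After thinning each cell to 1000 UMIs the adjusted p was 0.0635 in dorDG (4.19 points) and 0.278 in venDG (-2.24 points) by the same exact test. Mossy-named cells, of which the gate took 61, made up a mean of 8.64% of cells in FT and 2.86% in Sham replicates of dorDG. Without them the dorDG difference was 0.07 points, a value that follows from those shares and is no separate test. Leaving out 1 dorDG replicate ended the call in 8 of 9 cases, all but Sham replicate 4, with differences of 4.09 to 6.33 points. In cells with at least 2% ribosomal UMIs the differences were 5.47 points in dorDG (exact permutation, adjusted p = 0.0317) and -4.93 in venDG (adjusted p = 0.0635). Within first reactions, gated cells were 19.2 and 18.8% in dorDG FT, 16.3 and 14.8% in dorDG Sham, 11.8 and 13.0% in venDG FT and 7.89 and 22.9% in venDG Sham, too few for a test. Averaged over treatments the regions differed by 1.09 points (exact permutation within treatment, p = 0.509).

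**Figure D5:**
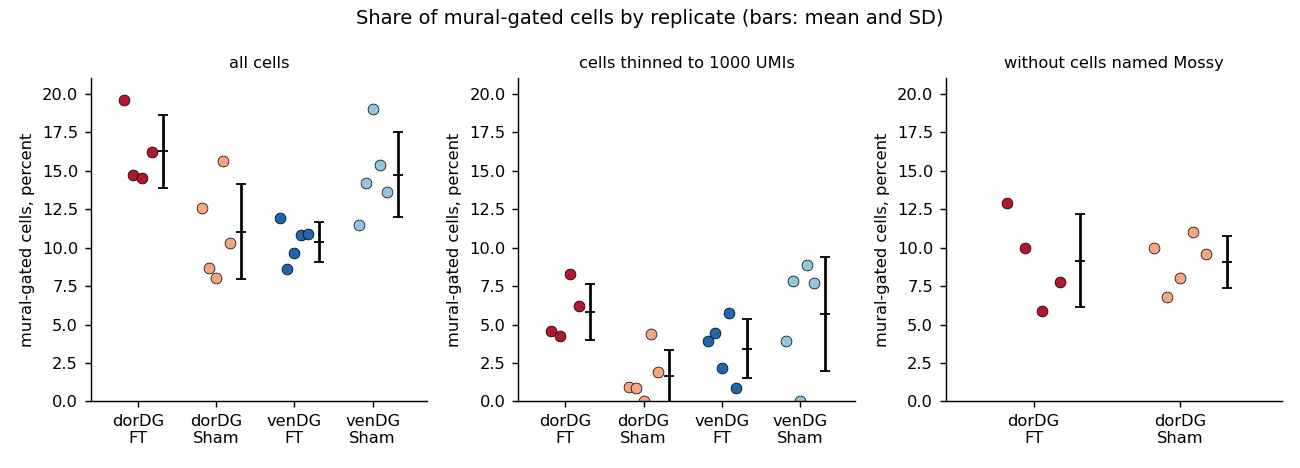
The percent of cells with at least 2 of 11 other mural genes detected, per replicate (points) with group mean and SD (bars), over all cells, after thinning to 1000 UMIs, and for dorDG without Mossy-named cells. The dorDG FT points (14.5 to 19.6%) lie above 4 of 5 dorDG Sham points in the first panel, and the groups overlap in the third.

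Within gated cells of dorDG, Vtn and Pdgfrb had the larger estimates. Of the Mossy-named cells, of which the gate took 61, 49 came from FT and 23 from Sham. The part of this make-up in the estimates was not tested. The log2 difference was 0.78 ± 0.56 for Rgs5, 1.10 ± 0.52 for Pdgfrb (p = 0.0441) and 1.39 ± 0.64 for Vtn (p = 0.0399), with adjusted p of 0.701, 0.646 and 0.646 in edgeR. In venDG it was 0.13 ± 0.43, -0.12 ± 0.42 and -0.02 ± 0.42. No member was called in either region, in edgeR or DESeq2, against 0.00804% of 12436 genes in dorDG and 0.0621% of 12874 in venDG in edgeR. Hemoglobin genes differed between replicates of the venDG gate. Hbb, which marks red blood cells, was 0.516 to 1.12 per 10000 in FT replicates. Sham replicates 4 and 5 lay inside that range (0.866 and 1.02), and Sham replicates 1, 2 and 3 stood at 23.2, 182 and 222. In the gate 3 of 4 tested erythroid genes were called lower in FT, while over all venDG cells 0 of 4 were called. Their part in the venDG share was not tested.

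The other genes of the vessel wall were read from gene lists over all cells. In dorDG, 2 of 10 tested genes of the other mural list were called, both higher in FT, with a list median log2 difference of 0.65 against -0.02 over all genes. Lists of other cell types had medians as high, at 1.12 for OPC genes (6 of 7 at an unadjusted p under 0.05), 0.91 for astrocyte genes (4 of 7) and 0.66 for microglia genes (1 of 7), and none of their genes was called. The mean share of low-ribosomal cells was 24.8% in FT and 52.9% in Sham, and its part in the list medians was not tested. The 2 were Tagln (3.41 ± 0.71, adjusted p = 0.171) and Myh11 (2.03 ± 0.46, adjusted p = 0.184), which are also the 2 calls among 11 tested smooth muscle contractile genes (median 0.89), against 0.201% of all genes called. Neither call held in cells with at least 2% ribosomal UMIs, where 0 of 14870 genes were called, nor without FT replicate 5, Sham replicate 3 or Sham replicate 5, each with 0 calls over all genes. Tagln stood at 2.07, 0.158, 0.639 and 2.07 per 10000 in FT and at 0.389, 0.0518, 0, 0.0329 and 0.0185 in Sham, with groups that overlap through FT replicate 2 and Sham replicate 1. Few cells carry these values: 14 Mossy-named cells held 320 Tagln UMIs, and FT replicates 1 and 5 had 154 and 121 Tagln UMIs in all. Myh11 stood at 0.779, 0.181, 0.286 and 1.22 in FT and at 0.253, 0.104, 0.163, 0.0986 and 0.167 in Sham. Without Mossy-named cells Tagln stood at 0.0759 to 0.313 in FT and at 0 to 0.0759 in Sham, and Myh11 at 0.0948 to 0.215 and 0.106 to 0.199. In venDG, 0 of 11 other mural genes and 0 of 12 contractile genes were called, with medians of -0.63 and -0.56.

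No gene of the signals between endothelial and mural cells was called by edgeR. The list of mural recruitment signalling held genes of the platelet-derived growth factor, angiopoietin, Notch and transforming growth factor pathways. It also held sphingosine-1-phosphate receptors, a cadherin and transcription factors. Of its 25 tested genes, 0 were called in either region, with medians of 0.19 in dorDG and -0.16 in venDG. Likewise 0 of 18 genes of the vascular basement membrane (medians 0.35 and -0.05), 0 of 7 pericyte genes (0.29 and -0.28), 0 of 14 endothelial genes (0.25 and -0.19) and 0 of 5 and 6 fibroblast genes (-0.63 and -0.47) were called. At an unadjusted p under 0.05 stood 5, 2, 2, 2 and 1 of these genes in dorDG and 2, 1, 2, 0 and 0 in venDG. Over all genes tested, 2304 of 15937 in dorDG and 824 of 16366 in venDG did. Between the regions, 1 of 6 fibroblast genes was called, Dcn, which encodes the matrix proteoglycan decorin. It was lower in dorDG (log2 difference -2.58 ± 0.66, adjusted p = 0.181). Few cells carry this difference: venDG FT replicates 4 and 5 and Sham replicate 1 held 37, 30 and 26 Dcn UMIs, in 5, 3 and 11 cells. Every other venDG replicate held at most 7 Dcn UMIs, and dorDG replicates held 0 to 5. The Dcn levels of those other venDG replicates overlapped the dorDG levels. Over all genes 0.266% were called between the regions. In cells with at least 2% ribosomal UMIs 0 of 16565 were called, so that the Dcn call was lost in those cells. Between the same groups 0 of 11 other mural and 0 of 14 endothelial genes were called.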

How the data were processed

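The deposited tables give raw UMI counts per gene and cell, which the authors made with Cell Ranger on rn5 and Seurat 3 per the labels' processing notes (10x Genomics 3′ kit). A per-cell annotation of dorDG (other information) gives the authors' type names. The authors' log-normalized venDG values are not used. Of the venDG columns, 170 with an unexplained second suffix were left out. Barcodes shared between reactions numbered 9 (18 cells).

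Counts were summed per replicate and tested with edgeR 4.0.16 (TMM, quasi-likelihood; R 4.3.3) over genes with at least 10 UMIs. DESeq2 1.42.0 was an alternative. Calls needed an adjusted p (Benjamini-Hochberg, over all genes tested) no higher than 0.2 together with a 1.25-fold change or more, both taken from the study. SEs are the log2 fold change divided by the root of the F statistic. Shares were compared by exact permutation tests (threshold 0.05). Groups came from the labels. Alternatives were size factors, filters on low counts, thinning, cell subsets, a replicate block and each replicate left out; those without Mossy-named cells, the fit within them and the interaction of shares were added after seeing the data. No doublet caller was run. The scripts were tested on simulated data. Cells were clustered per region with scanpy 1.11.5 (2000 variable genes without the members, 30 components, 15 neighbours, resolution 2.0). A cluster was named from at least 3 fixed markers unless its leading genes were those of another type. Named genes are the members, up to 3 called genes per list and the 5 nearest genes by Jaccard index among genes in at least 20 cells; any other gene is a marker or was picked once its values were known. No replicate pair of a group agreed within sampling noise (chi-square over its degrees of freedom, lowest 2.97). Where nothing in the labels shows separate animals, p-values measure the spread between these samples. The members, lists and tests were chosen with earlier results of these data known.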

Additional observations from a re-analysis of the deposited data

Results flagged for a closer look

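In dorDG FT, Rgs5 was detected in 12.2% of the cells of replicate 4, which lay far from 9.79, 10.2 and 10.1% in the other 3 replicates. It was the only one of 32 sets of replicate values with so wide a gap, which chance gives in about 1 in 20.

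The treatment difference in the share of mural-gated cells had opposite signs in the regions, 5.2 points in dorDG and -4.38 in venDG. The difference of these differences was 9.58 points (treatment permuted within region, two-sided exact permutation test, p = 0.00063), a test added after the data were seen. The difference of differences was 6.44 points after thinning each cell to 1000 UMIs (exact p = 0.013) and 5.82 without cells with at least 2 endothelial genes (exact p = 0.015). These p-values hold only if the regions are independent, since each region was permuted separately. The study's methods name no separate animals for dorDG and venDG, so their pools may share animals. No version with the regions joined was run. The gated cells of venDG Sham replicates 1, 2 and 3 also held more Hbb (23.2 to 222 per 10000) than those of the other venDG replicates (0.516 to 1.12). Of the 174 gated dorDG cells, 61 were Mossy-named. The part of either in the difference was not tested.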

How the results depend on the processing

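Of the members, Vtn was called in dorDG under the study's filter (1 of 1 tested), where calls over all genes also rose (below), and without Sham replicate 4. The count of members called thus ran from 0 to 1 with 1 replicate left out. Without Mossy-named cells, which held most of these UMIs, the log2 differences turned to -0.29 (Rgs5), -1.10 (Pdgfrb) and -0.67 (Vtn). Other signs that turned belong to estimates near 0. With 1 replicate left out, Rgs5 ran from -0.26 to 0.0664 in venDG and from -0.19 to 0.11 between regions; in venDG gated cells Rgs5 ran from -0.14 to 0.41, Pdgfrb from -0.38 to 0.15 and Vtn from -0.31 to 0.32; in Mossy-named cells Rgs5 ran from -0.38 to 0.43 and Vtn from -0.31 to 1.06. Rgs5 was -0.21 in venDG gated cells with at least 2% ribosomal UMIs and 0.0104 in Mossy-named cells without the filter on low counts. The causes were not tested.

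The gated share differences, dorDG and venDG in turn, were 4.73 and -2.68 points with at least 3 genes, 5.61 and -7.48 with at least 1, 4.19 and -2.24 after thinning, and 3.86 and -1.96 without cells with at least 2 endothelial genes, and none of these 8 values passed the threshold (exact permutation test). The venDG value was -4.93 in cells with at least 2% ribosomal UMIs, and the dorDG value 0.0726 without Mossy-named cells. The region difference was 7.66 points with at least 1 gene (exact permutation p = 0.0135) and -0.84 after thinning. With 1 replicate left out, the dorDG difference ran from 4.09 to 6.33 and lost its call in 8 of 9 cases, the venDG difference from -5.19 to -3.3 with its call kept.

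The sources used here do not say that a replicate number marks the same animals. The study's methods name no separate animals for dorDG and venDG, so pools of both regions may share animals. The main fits over both regions took no account of this. Correlations of same-numbered FT and Sham replicates ran from -0.104 to 0.232 in dorDG and from -0.0278 to 0.206 in venDG. In venDG, FT replicates 1, 2, 4 and 5 correlated best with the Sham replicate of their own number. In dorDG only FT replicate 4 did. Correlations of same-numbered dorDG and venDG replicates ran from 0.112 to 0.434 in Sham and from 0.0529 to 0.252 in FT. Of these, 8 of 9 were over 0.1 and 5 of 9 were best with their own number. Pairing, between regions and between treatments within venDG, was thus a hint from the data and not taken as the design. With a replicate block, 1 member was called in the interaction (Vtn, 1.49, adjusted p = 0.139, edgeR) and Vtn in venDG gated cells was 0.0124. The block gave shares of 4.44 and -4.38 points (exact permutation, adjusted p = 0.25 for both), a design of 4 or 5 pairs that cannot pass. It changed the count of all genes called from 32 to 13 in dorDG, 0 to 8 in venDG, 5 to 11 in Endothelial cells, 46 to 70 between regions, 0 to 125 in the interaction, 1 to 16 and 8 to 25 in gated cells and 0 to 11 in Mossy-named cells.

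Counts over all genes were unstable. In dorDG the 32 calls became 84 with RLE size factors, 1224 with DESeq2, 1221 under the study's filter, 207 without a filter, 0 in cells with at least 2% ribosomal UMIs, 8 without Mossy-named cells and 0 to 1995 with 1 replicate left out (most without Sham replicate 2). The 46 calls between regions became 8 under the study's filter and 0 in cells with at least 2% ribosomal UMIs. Without a filter 3 genes were called in venDG, 17 in Endothelial cells, 86 and 47 in gated cells and 21 in Mossy-named cells. The members had 279 to 844 UMIs per region, and the parts of depth and of cell numbers in these totals were not tested.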
